A study of Mus musculus with 216 samples.

Results

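Daily rhythm in young skeletal muscle was read from the 12 RNA-seq libraries whose labels give that tissue and age, out of 216 libraries of 6 tissues at 3 ages. The muscle came from male C57B6/J-NIA mice 6 months old, sampled every 4 h at circadian times (CT) 18 to 62, and each library pooled 2 samples. Each of 6 circadian times (CT 2, 6, 10, 14, 18 and 22) was thus sampled in a first cycle (CT 18 to 38) and in a second (CT 42 to 62). Subjective day is CT 0 to 12 and subjective night CT 12 to 24; the lighting is not given in the sources used here. The groups set beside it were muscle of aged (18 months) and old (27 months) males and heart of young (6 months) males, all of the same strain. Each had 12 libraries at the same times. No genotype or treatment is labelled in any of these groups. For every gene a 24 h cosine was fitted to the counts across muscle of all 3 ages with a separate rhythm for each age, and a gene was called rhythmic in young muscle at an adjusted p under 0.05. No age had a second library at the same sampling time. The p-values in muscle thus measure the spread of the pooled libraries of all 3 ages around their fitted cosines.

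The circadian clock of a cell is a transcriptional feedback loop. ARNTL (BMAL1) pairs with CLOCK or NPAS2 and binds E-boxes to drive the Per and Cry genes, whose proteins then repress that pair. A further loop of the repressors NR1D1 and NR1D2 (REV-ERB) and ROR activators such as RORA acts on ROR elements, among them those of Arntl, and another sets the activators DBP, TEF and HLF against the repressor NFIL3 at D-boxes. In muscle the clock is known for timing glucose uptake, glycogen and lipid handling and the myogenic factor MYOD1.

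Short stretches of the promoters of clock genes hold these motifs, and 6 are shown because they hold a motif and their genes were rhythmic in the results that follow. RefSeq promoter windows (250 bases before the start, GRCm38.p6) were at hand for 17 of 20 clock genes, 22 windows in all, and 7 genes had a motif. Capitals mark an E-box (CACGTG), a D-box (TTATGTAA or TTACGTAA) or a ROR element (TAGGTCA or TGGGTCA, here on the other strand as TGACCTA); both strands were searched, and the motifs share no letters in these windows. The windows are Ciart (chr3:95882229-95882478, minus strand), Per1 (chr11:69098699-69098948, plus), Tef (chr15:81802423-81802672, plus), Per3 (chr4:151044666-151044915, minus), Cry1 (chr10:85185055-85185304, minus) and Nfil3 (chr13:52981040-52981289, minus), each written 5′ to 3′ toward its gene.
Ciart: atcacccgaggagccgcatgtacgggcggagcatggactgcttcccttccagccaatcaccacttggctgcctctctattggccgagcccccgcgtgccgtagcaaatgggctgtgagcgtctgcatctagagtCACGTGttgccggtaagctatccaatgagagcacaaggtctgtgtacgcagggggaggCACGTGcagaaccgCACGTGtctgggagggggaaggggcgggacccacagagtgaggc
Per1: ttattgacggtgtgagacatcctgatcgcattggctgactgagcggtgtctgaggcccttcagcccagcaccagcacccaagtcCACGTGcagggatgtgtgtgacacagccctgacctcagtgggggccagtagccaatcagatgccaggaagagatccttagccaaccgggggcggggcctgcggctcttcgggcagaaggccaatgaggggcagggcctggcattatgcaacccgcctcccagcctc
Tef: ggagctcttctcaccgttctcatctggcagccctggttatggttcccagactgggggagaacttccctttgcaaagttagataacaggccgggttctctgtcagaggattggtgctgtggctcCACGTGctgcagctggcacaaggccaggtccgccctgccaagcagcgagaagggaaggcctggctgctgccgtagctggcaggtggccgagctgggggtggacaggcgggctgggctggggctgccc
Per3: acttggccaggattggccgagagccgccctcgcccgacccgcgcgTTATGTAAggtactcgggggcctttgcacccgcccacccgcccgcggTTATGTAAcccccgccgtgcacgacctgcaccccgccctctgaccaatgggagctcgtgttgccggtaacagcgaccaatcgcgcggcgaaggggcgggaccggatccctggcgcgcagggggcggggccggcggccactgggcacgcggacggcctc
Cry1: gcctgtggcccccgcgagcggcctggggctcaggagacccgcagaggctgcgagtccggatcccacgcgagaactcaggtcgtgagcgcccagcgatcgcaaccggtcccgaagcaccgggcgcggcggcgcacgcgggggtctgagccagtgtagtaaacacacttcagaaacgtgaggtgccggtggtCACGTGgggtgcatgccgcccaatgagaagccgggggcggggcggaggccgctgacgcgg
Nfil3: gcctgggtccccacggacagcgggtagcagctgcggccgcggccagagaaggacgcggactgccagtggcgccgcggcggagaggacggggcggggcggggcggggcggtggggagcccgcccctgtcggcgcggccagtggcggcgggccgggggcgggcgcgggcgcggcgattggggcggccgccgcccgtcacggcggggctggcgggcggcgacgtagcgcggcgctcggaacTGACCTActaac
The Ciart window held 3 E-boxes, beginning 116, 58 and 44 bases before the start, and the Per3 window held 2 D-boxes at 205 and 158 bases. In the windows shown an E-box lay at 166 bases in Per1, 127 in Tef and 60 in Cry1, and the ROR element of Nfil3 began 12 bases before the start. A second window of Tef, not shown, held an E-box at 138 bases, and a second window of Per1 held no motif. E-boxes and ROR elements are not rare, and D-boxes are rarer. An E-box was found in 6.02% of all 32851 mouse windows, counted per window. Counted per gene, in any of its windows, it was in 9.85% of the 10546 tested genes with a window. Among the 149 rhythmic genes with a window it was in 12.8%. A D-box was in 0.93%, 0.73% and 2.01% of the same sets, and a ROR element in 5.38%, 5.23% and 4.70%.

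The libraries held 15.2 to 27.6 M counts. The muscle fibre markers Acta1, Ckm, Myh1, Myh2, Myh4, Tnnt3, Mylpf and Actn3 together reached 59063 to 71896 CPM (counts scaled to a common library total) in every library and none was called rhythmic, whereas the heart markers Myh6, Nppa and Myl7 summed to 1.48 to 7.63 CPM and kidney markers to at most 0.351. RNA of other cell types was present in uneven amounts: adipocyte markers ran from 16.6 CPM at CT 58 to 191 at CT 54, Schwann cell markers from 43.7 at CT 18 to 343 at CT 54, and lung markers from 72.8 at CT 58 to 303 at CT 42. The library of CT 26 also held epithelial RNA, with skin markers at 52.1 CPM against 2.31 to 5.11 elsewhere. Most of that sum was Krt5 (45.6 CPM), with Krt14 at 3.19. Krt10 (3.34 CPM) and Lor (0.05) were not raised there. The library of CT 50 held the most fibroblast RNA, at 1383 CPM against 724 to 968, and tendon and joint genes chosen after their values were seen (Prg4, Comp, Chad, Tnmd, Cilp2 and Fmod) summed to 442 CPM there and 35.9 to 129 elsewhere. Both libraries belong to CT 2, so results at that time are given with and without them. Genes that are low at CT 2 also rest on them. Of the 56 rhythmic genes named by the rules given below, 19 lost their call without both libraries. Leaving out both libraries of another circadian time ended the call of 5 to 17. In bulk tissue, fewer cells of a type and less RNA per cell cannot be told apart.

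In young muscle 200 of 14542 tested genes were rhythmic, 1.38% of those tested, and 1152 had an unadjusted p under 0.05 (edgeR quasi-likelihood fit, p adjusted by Benjamini and Hochberg). The called genes split almost evenly, with 99 peaking in the subjective day (0.681% of tested genes) and 101 in the night (0.695%). Their amplitude, the rise of the fitted curve from its mean to its peak on the log2 CPM scale, had a median of 0.56 and ran from 0.24 to 2.06, against a median of 0.11 over all tested genes. The median fold from trough to peak was 2.17 (range 1.40 to 17.4). Only 22 genes had an amplitude above 1, and 81 changed less than 2-fold. The split is coarse at its borders, since 60 called genes peaked within 2 standard errors of CT 0 or CT 12 and the median standard error of a peak was 0.61 h.

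Peaks gathered around the changes between day and night. The span from CT 20 to CT 4 held 87 of the 200 called genes (43.5%, against 35.5% of all tested genes), and CT 8 to CT 16 held 81 (40.5% against 33.6%). Only 13 called genes peaked at CT 4 to 8 (6.5% against 16.6%) and 19 at CT 16 to 20 (9.5% against 14.4%). These shares were not tested. They also depend on the libraries: without CT 26 and CT 50, 94 genes were called, of which 91 were among the 200, and 5 of the 46 genes that peaked at CT 0 to 4 were still called (Npas2, Fst, Fam110b, Mboat1 and Rgs2). Leaving out both libraries of another circadian time lowered calls near that time too, to 11 of 40 around CT 10, 10 of 41 around CT 14, 2 of 13 around CT 6, 13 of 19 around CT 18 and 29 of 41 around CT 22. Without CT 26 alone the count of all called genes was 130. No single young library moved the night group by more than 1.5 times, and the day group fell from 99 to 50 without CT 26, 58 without CT 50, 59 without CT 62, 60 without CT 34 and 64 without CT 58. Of the 200 genes, 95 were called whichever single young library was left out, 34 of them day genes and 61 night genes.

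**Figure D1:**
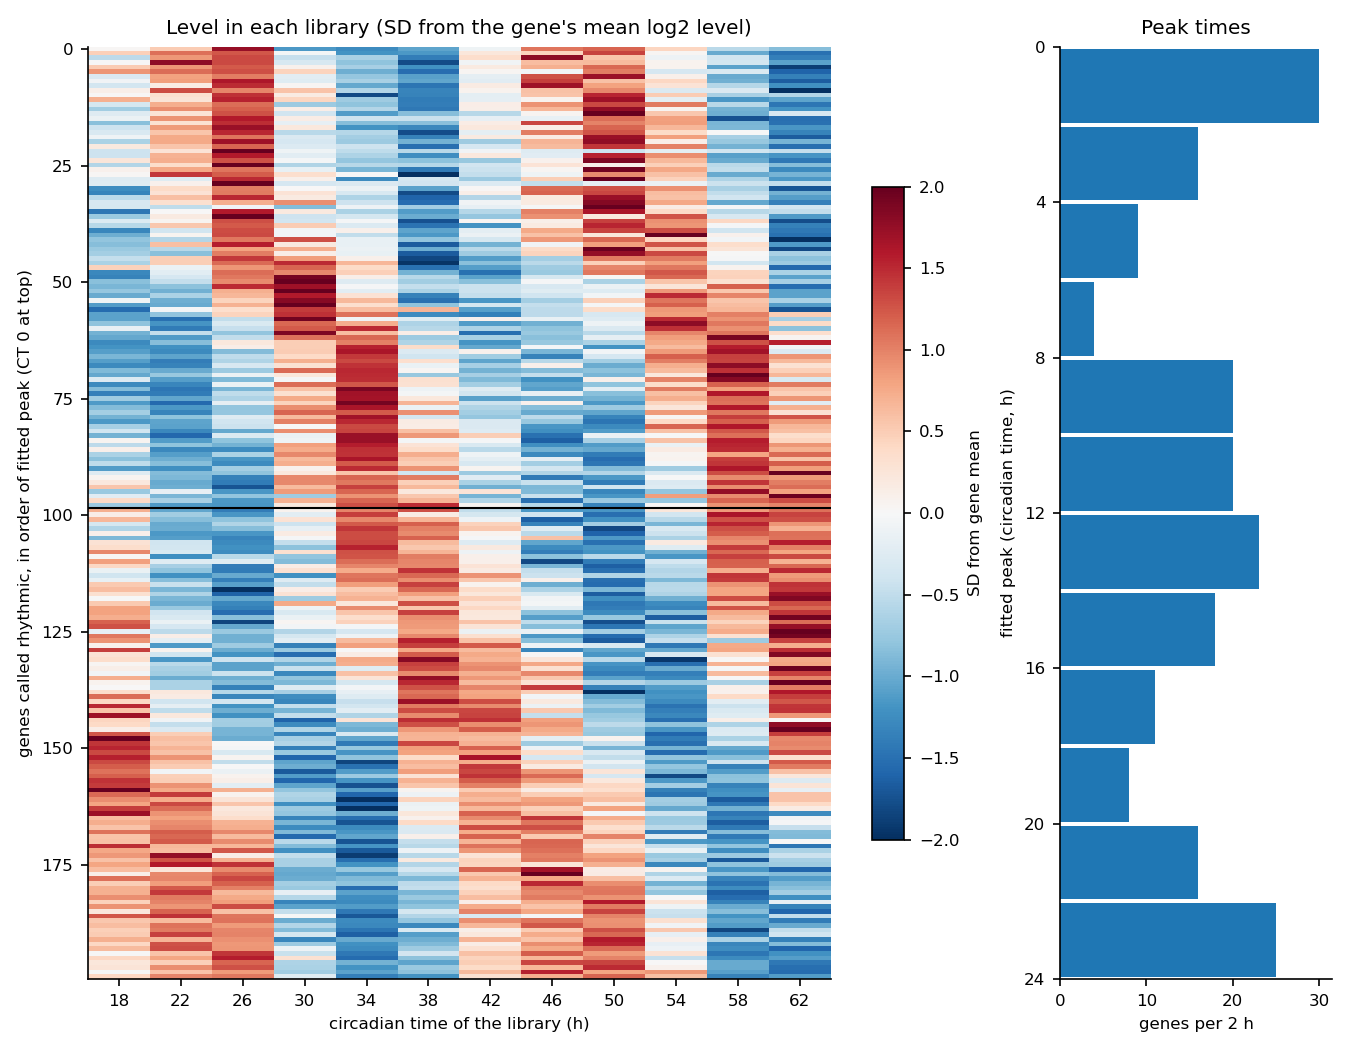
Left, the 200 rhythmic genes (rows, in order of fitted peak from CT 0 at the top) in the 12 libraries (columns, circadian time in h); colour is the distance from the gene's mean log2(CPM + 1) in SD, and the black line divides day-peaking from night-peaking genes. Right, genes per 2 h of fitted peak; 46 genes peaked at CT 0 to 4, 13 at CT 4 to 8, 40 at CT 8 to 12, 41 at CT 12 to 16, 19 at CT 16 to 20 and 41 at CT 20 to 24, and the bands of high level recur after 24 h.

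The second cycle repeated the first. Fitted to each cycle alone, 165 of the 200 genes peaked within 2 h of the same time (82.5%, against 22.4% of all tested genes), with a median absolute difference of 1.03 h; this is partly built in, because the genes were called on both cycles together. In the second cycle peaks were a median of 0.71 h later, and 59 genes peaked earlier. No gene passed the test for an added 12 h component (0% of tested genes called; 83 at an unadjusted p under 0.05; DESeq2 also called 0).

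Of the 20 clock genes, 15 were rhythmic, against 1.38% of all tested genes, and their peaks ran in order around the day. The standard errors of their peak times were 0.27 to 0.68 h. Clock, Arntl2, Bhlhe41 and Rora were among the 5 not called.

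The activating arm peaked at the end of the night and the start of the day. Arntl (Bmal1), the partner that CLOCK and NPAS2 share, stood at 10.4 CPM in its lowest library (CT 34), 36.3 in the median and 63.5 in the highest (CT 50). Its low libraries were those of CT 10 and CT 14 in both cycles and its high ones those of CT 22 and CT 2. The fitted peak was CT 23.8 ± 0.40 (SE) and the amplitude 1.30 ± 0.13, a 6.04-fold change (adjusted p = 6.32e-08). Npas2, which can replace CLOCK, went from 0.271 CPM (CT 38) through a median of 0.645 to 4.69 (CT 50), and peaked at CT 1.26 ± 0.37 with an amplitude of 1.69 ± 0.16 (10.4-fold, adjusted p = 4.40e-07). Both libraries of CT 2, 4.69 CPM at CT 50 among them, were the highest of the 12. Npas2 did not pass the filter on low counts in a fit of the young libraries by themselves. Clock itself lay between 33.6 and 53.9 CPM with an amplitude of 0.25 ± 0.07 (adjusted p = 0.762), and Arntl2 reached at most 3.71 CPM (adjusted p = 0.929).

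The repressors of the second loop came next, and the REV-ERB genes were hours apart. Nr1d1 (REV-ERB alpha), which represses Arntl, ranged from 39.4 CPM (CT 42) through a median of 129 to 282 (CT 54). It overlaps Thra on the other strand, and whether the counting used strand is not given in the sources used here. It peaked in the middle of the subjective day, at CT 5.28 ± 0.28, with an amplitude of 1.37 ± 0.10 (6.69-fold, adjusted p = 4.40e-07). Every day library lay above every night library, which held for 6 of the 200 called genes and for 0.811% of all tested genes (1.12% when either direction counts). Nr1d2 (REV-ERB beta) peaked at CT 11.5 ± 0.43 and moved less, from 116 CPM (CT 46) through 165 to 218 (CT 34), an amplitude of 0.48 ± 0.05 (adjusted p = 0.00358). It was called without either of CT 26 and CT 50 but not without both. Rora, an activator at the same elements, had an amplitude of 0.25 ± 0.08 (144 to 242 CPM, adjusted p = 0.766).

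The repressors of the main loop peaked from the later day into the first hours of the night, except for Cry1 late in the night. Bhlhe40 (DEC1), which competes for E-boxes, peaked at CT 8.17 ± 0.66 with 109 to 215 CPM and an amplitude of 0.40 ± 0.07 (adjusted p = 0.0087, and 0.0514 without CT 34). Its paralog Bhlhe41 stayed between 96.3 and 160 CPM (amplitude 0.26 ± 0.07, adjusted p = 0.605). Ciart (CHRONO), a repressor of the ARNTL complex whose promoter window held 3 E-boxes, had the largest amplitude among the 200 called genes, 2.06 ± 0.18 or 17.4-fold. It was at 1.35 CPM in its lowest library (CT 22), 3.56 in the median and 22.3 in the highest (CT 34), and peaked at CT 9.39 ± 0.34 (adjusted p = 3.79e-09).

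The period genes followed each other. Per3 peaked at CT 10.8 ± 0.45, from 16.2 CPM (CT 46) through 26.9 to 64.5 (CT 34), with an amplitude of 0.93 ± 0.11 (adjusted p = 6.32e-08). Per1 peaked at CT 11.3 ± 0.49, from 10.8 CPM (CT 50) through 29.5 to 98.3 (CT 58), with an amplitude of 1.41 ± 0.18 (adjusted p = 4.99e-05). The ranges of 1 SE around the peaks of these 2 genes overlapped. Per2 peaked last, at CT 12.9 ± 0.33, from 3.88 CPM (CT 50) through 17.7 to 36.7 (CT 58), with an amplitude of 1.5 ± 0.13 (adjusted p = 3.82e-09).

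The cryptochromes, which carry most of the repression, peaked at separate times. Cry2 peaked with the period genes at CT 12.2 ± 0.49 with 42.5 to 76.5 CPM and an amplitude of 0.39 ± 0.05; its adjusted p of 0.0496 rose above the threshold when any single young library was left out (0.0582 to 0.184). Cry1 peaked at CT 21.2 ± 0.43, from 21.2 CPM (CT 54) through 30.2 to 39.3 (CT 22), an amplitude of 0.42 ± 0.05 (adjusted p = 0.00305). Cry1 was above 30 CPM only in the libraries of CT 18, 22 and 2.

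All 4 genes of the D-box loop were rhythmic, and the repressor stood apart from the activators. Dbp rose from 35.4 CPM (CT 22) through 117 to 279 (CT 34), with its peak at CT 10.5 ± 0.27, an amplitude of 1.51 ± 0.11 (8.14-fold) and the smallest adjusted p of all tested genes, 7.97e-10. Tef (305 to 484 CPM) and Hlf (19.7 to 39.5 CPM) peaked later, at CT 11.8 ± 0.65 and CT 12.7 ± 0.68, with amplitudes of 0.31 ± 0.05 and 0.47 ± 0.08 (adjusted p = 0.00752 and 0.0160). Tef was called without either of CT 26 and CT 50 but not without both. Hlf lost its call without CT 26, 34, 46 or 50 (adjusted p 0.0525 to 0.0779). Nfil3, the repressor whose window held the ROR element, peaked in the late night at CT 20.8 ± 0.42, from 16.2 CPM (CT 34) through 45.5 to 91.5 (CT 46), with an amplitude of 1.08 ± 0.12 (adjusted p = 2.00e-07).

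**Figure D2:**
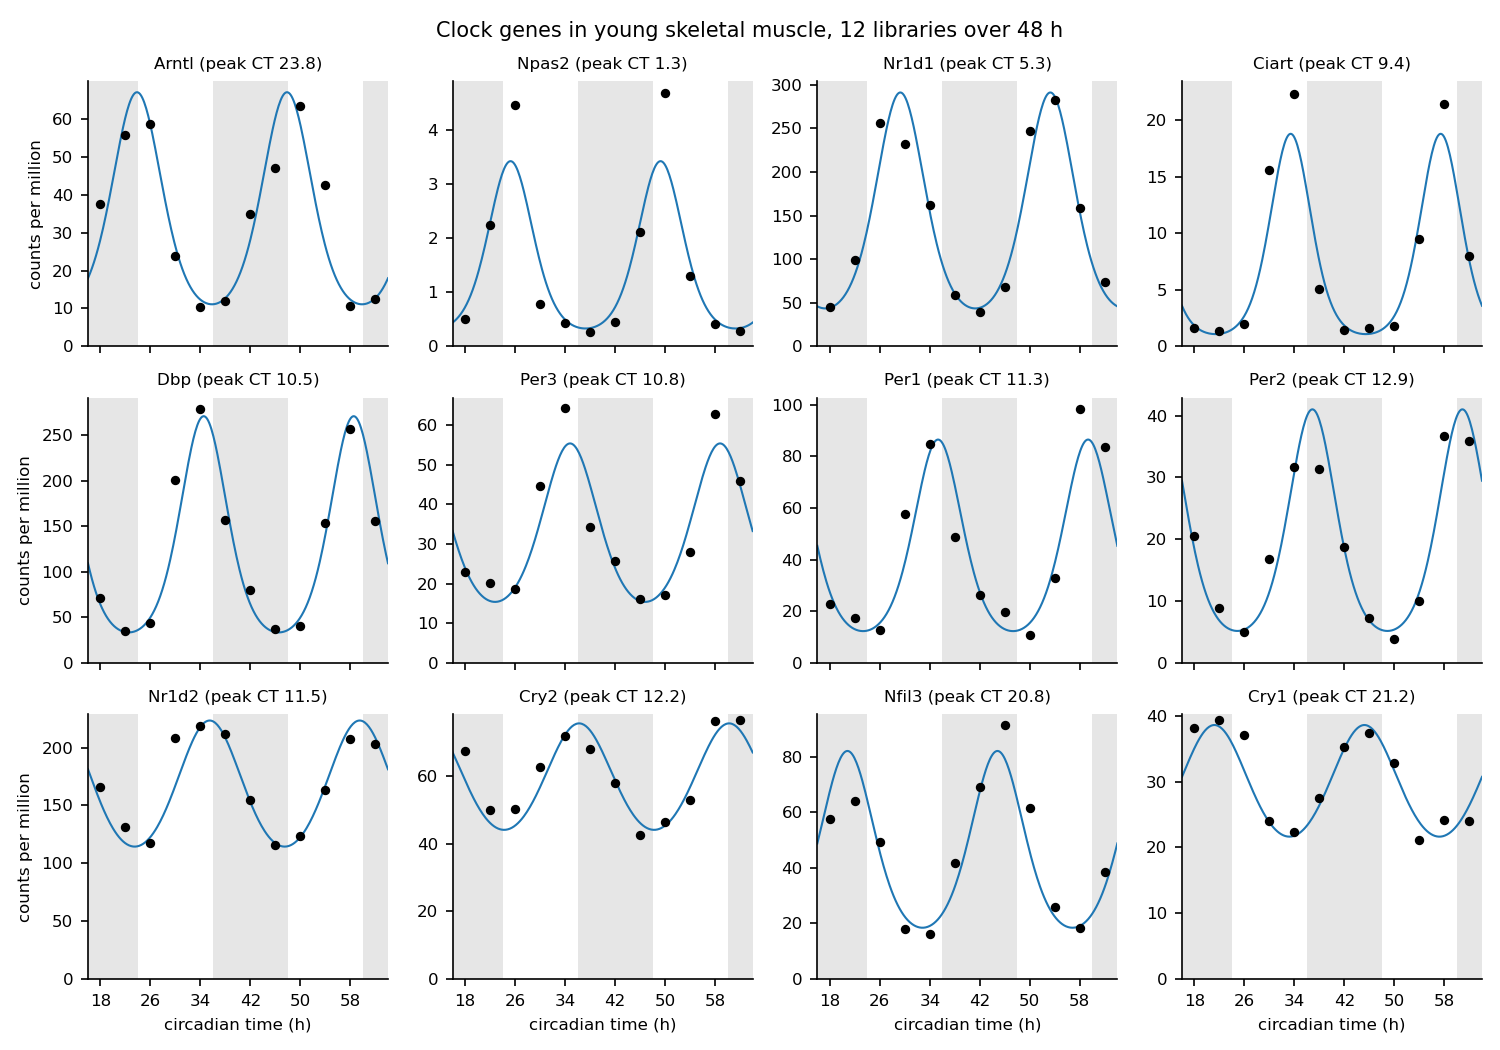
CPM (vertical axes, from 0) against circadian time in h for 12 rhythmic clock genes; points are single libraries, the line is the cosine fitted on the log2 scale with 2 added counts, and grey marks the subjective night. Peaks move from Npas2 at CT 1.26 through Nr1d1 at CT 5.28, Ciart at CT 9.39 and Per2 at CT 12.9 to Cry1 at CT 21.2 and Arntl at CT 23.8.

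The gene lists that follow were chosen with earlier results of these data known, so their shares of calls are a description and not a test. Of 12 tested genes known as direct clock outputs in several tissues, 4 were rhythmic (33.3%, against 1.38% of tested genes). The median amplitude was 0.44 over the list and 0.11 over all tested genes. Usp2, a deubiquitinase that acts on clock proteins, went from 137 CPM (CT 50) through 245 to 373 (CT 34) and peaked at CT 12.3 ± 0.32 (amplitude 0.67 ± 0.06, adjusted p = 1.94e-08). The tetraspanin Tspan4 peaked at CT 11.4 ± 0.71 (8.72 to 21.8 CPM, adjusted p = 0.00253). Wee1, the kinase that holds cells before mitosis, peaked at CT 13.7 ± 0.55 (4.20 to 8.50 CPM, adjusted p = 0.0212) and was not called without CT 26, 50, 58 or 62 (0.0532 to 0.103). The other rhythmic member, Tsc22d3, is described with the glucocorticoid genes; Nampt, of the NAD salvage route, was not rhythmic (amplitude 0.11 ± 0.04, adjusted p = 1).

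Glucose and glycogen genes were rhythmic at scattered times: 4 of 32 were called (12.5%, against 1.38% of tested genes), and the median amplitude of the list, 0.12, was close to that of all genes. Pfkfb3, whose product makes the activator of phosphofructokinase, went from 113 CPM (CT 38) through 313 to 832 (CT 30), and every day library lay above every night library. It peaked at CT 6.00 ± 0.69 with an amplitude of 1.03 ± 0.19, and its adjusted p of 0.0474 was 0.0701 to 0.243 without any single library other than CT 18. Pdp1, the phosphatase that switches pyruvate dehydrogenase on, peaked at CT 12.2 ± 0.39 with 113 to 193 CPM (amplitude 0.39 ± 0.04, adjusted p = 0.00235).

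The other 2 glucose genes peaked later in the night than Pdp1. Tbc1d1, which restrains GLUT4 until it is phosphorylated, ran from 72.4 CPM (CT 30) through 114 to 200 (CT 42) and peaked at CT 18.3 ± 0.63 (amplitude 0.55 ± 0.09, adjusted p = 0.0087, and 0.0568 without CT 42). Ppp1r3c, which targets a phosphatase to glycogen, ran from 219 CPM (CT 34) through 766 to 946 (CT 18) and peaked at CT 20.4 ± 0.76 with an amplitude of 0.84 ± 0.17 (adjusted p = 0.00411). Its low libraries were those of CT 6 and CT 10 in both cycles. Hexokinase 2 (Hk2) had an amplitude of 0.26 ± 0.03 at an adjusted p of 0.0566, and Pdk4, which switches pyruvate dehydrogenase off, had 0.84 ± 0.23 at 0.557, with values from 211 to 1148 CPM.

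Of 37 genes of fatty acid use and lipid storage, 1 was rhythmic (2.70%, against 1.38% of tested genes). Gpam, which begins triglyceride synthesis, peaked at CT 10.7 ± 0.52 with 223 to 405 CPM and an amplitude of 0.33 ± 0.05 (adjusted p = 0.0122; not called without CT 34, 46 or 58, 0.0652 to 0.0896). Ucp3, a mitochondrial carrier linked to fatty acid use, went from 76.1 to 253 CPM with a fitted peak near Gpam, at CT 10.5, and missed the threshold (amplitude 0.78 ± 0.12, adjusted p = 0.0604).

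Of 22 glucocorticoid-induced genes 8 were called (36.4%, against 1.38% of tested genes), Per1 of the clock among them, and 6 of the 8 peaked at night. The list was chosen with earlier results of these data known, so its share was not tested. Their median amplitude was 0.44, and 16 had an unadjusted p under 0.05. Arrdc2 and Arrdc3 encode arrestin-domain proteins. Arrdc2 went from 12.8 CPM (CT 50) through 55.2 to 163 (CT 62) and peaked at CT 13.3 ± 0.54 (amplitude 1.38 ± 0.19, adjusted p = 0.00130), and Arrdc3 went from 34.3 (CT 54) through 75.8 to 133 (CT 62) and peaked at CT 17.0 ± 0.38 (amplitude 0.86 ± 0.09, adjusted p = 2.30e-05). Arrdc2 was called without either of CT 26 and CT 50 but not without both. Every night library of Arrdc3 lay above every day library, as for 8 of the 200 called genes and 0.309% of all tested genes.

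Other known targets of the hormone also peaked at night. Glul, glutamine synthetase, peaked at CT 15.0 ± 0.67, from 174 CPM (CT 50) through 271 to 607 (CT 62) (amplitude 0.69 ± 0.12, adjusted p = 8.91e-05). Tsc22d3 (GILZ), an anti-inflammatory mediator, peaked at CT 16.1 ± 0.50 with 192 to 363 CPM (adjusted p = 0.00394). Fkbp5, a chaperone that dampens the glucocorticoid receptor, peaked at CT 18.5 ± 0.66, from 36.5 CPM (CT 34) through 68.0 to 115 (CT 42) (amplitude 0.68 ± 0.12, adjusted p = 0.000109). For Tsc22d3 and Fkbp5, too, the night and day libraries did not overlap. The list shares Per1 with the clock. The list's remaining called genes were close to the threshold: Ddit4 (REDD1), a brake on mTOR, peaked at CT 11.5 (8.72 to 33.3 CPM, adjusted p = 0.0361) and Cebpb at CT 15.5 (adjusted p = 0.0481); Ddit4 kept its call in 6 and Cebpb in 3 of the 12 fits that left out 1 young library. With the young libraries fitted by themselves Ddit4 had an adjusted p of 0.0972.

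Of 25 immediate early genes tested, 3 were rhythmic (12%, against 1.38% of tested genes), all peaking in the middle of the day. In this list 13 had an unadjusted p under 0.05, and its median amplitude was 0.33. Egr1, a zinc-finger factor of the early response to stimuli, went from 2.56 CPM (CT 62) through 7.89 to 33.3 (CT 30) and peaked at CT 5.47 ± 1.06 (amplitude 1.15 ± 0.32, adjusted p = 0.00127, and 0.0874 with the young libraries fitted by themselves). Egr3 peaked at CT 5.42 ± 1.02, from 0.396 CPM (CT 42) through 0.737 to 5.69 (CT 30) (adjusted p = 0.00253, and 0.142 without CT 30; it did not pass the filter on low counts in a fit of the young libraries by themselves). Junb, a subunit of AP-1, peaked at CT 6.06 ± 0.63, from 6.41 CPM (CT 18) through 9.69 to 24.4 (CT 30) (adjusted p = 0.00157). The library of CT 30 was the highest for all 3, and for Egr1 and Junb the day and night libraries did not overlap. Fos followed the same times without passing the test (2.39 to 32.8 CPM, adjusted p = 0.142).

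Among 28 myogenic and growth-control genes 3 were rhythmic (10.7%, against 1.38% of tested genes), and the median amplitude was 0.21. Myod1, the master factor of the muscle lineage, went from 18.6 CPM (CT 30) through 40.2 to 70.2 (CT 18) and peaked at CT 19.3 ± 0.45 (amplitude 0.79 ± 0.09, adjusted p = 7.06e-07). Its lowest libraries were those of CT 6 and CT 10. Fst, follistatin, which binds myostatin, peaked on the other side of the night at CT 0.51 ± 0.31, from 3.41 CPM (CT 62) through 5.62 to 11.9 (CT 50) (amplitude 0.74 ± 0.06, adjusted p = 0.000935). Pik3r1, the regulatory subunit of PI3 kinase, peaked at CT 16.6 ± 0.84 (35.3 to 75.7 CPM, adjusted p = 0.0409) with night libraries all above day libraries, and kept its call in 3 of the 12 fits that left out 1 young library (0.0615 to 0.191 in the others).

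Of 31 genes of atrophy, ubiquitin ligation and autophagy 3 were rhythmic (9.68%, against 1.38% of tested genes), all close to the threshold. Beside Ddit4 these were Foxo1, the transcription factor of atrophy, with its peak at CT 15.4 ± 0.96 (28.1 to 60.5 CPM, adjusted p = 0.0397), and Cdkn1a (p21), with its peak at CT 1.11 ± 0.57 (8.76 to 29.8 CPM, adjusted p = 0.0442). Foxo1 lost its call in 7 of the 12 fits that left out 1 young library (adjusted p = 0.0578 to 0.337) and Cdkn1a in 9 (0.0581 to 0.182). Cdkn1a was also not called without both CT 26 and CT 50. The atrophy ligase Fbxo32 (atrogin-1) was not rhythmic (436 to 937 CPM, amplitude 0.30 ± 0.13, adjusted p = 0.771).

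Transport and amino acid genes supplied further night peaks. Of 217 solute carriers 8 were rhythmic (3.69%, against 1.38% of tested genes), 6 of them at night. Slc25a30, a mitochondrial inner-membrane carrier, went from 17.5 CPM (CT 26) through 45.9 to 115 (CT 62) and peaked at CT 15.8 ± 0.28 (amplitude 1.35 ± 0.10, adjusted p = 7.28e-06). Slc27a3, of the fatty acid transport protein family, peaked at CT 23.1 ± 0.33 with 1.42 to 8.08 CPM (amplitude 1.09 ± 0.09, adjusted p = 5.79e-06). Slc16a9, of the monocarboxylate transporter family, peaked at CT 20.5 ± 0.45 (10.04 to 36.2 CPM) and Slc25a36, a mitochondrial pyrimidine nucleotide carrier, at CT 22.6 ± 0.35 (40.5 to 96.9 CPM). Slc38a2, the amino acid transporter SNAT2, peaked at CT 19.6 ± 0.58, from 123 CPM (CT 34) through 241 to 340 (CT 18) (amplitude 0.58 ± 0.09, adjusted p = 0.00163). With Glul it made up the 2 called genes of 27 in amino acid, polyamine and nucleotide metabolism (7.41%, against the same 1.38%).

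Single members were rhythmic in other families. The shares called were 2.86% of collagens, 2.56% of potassium channels and 4.55% of ubiquitin-specific proteases, against 1.38% of all tested genes. A single call lies near that background for lists of this size. Col5a3, a chain of collagen V, peaked at CT 2.09 ± 0.38 and was the 1 rhythmic gene of 35 collagens (16.9 to 64.6 CPM, adjusted p = 0.00131), with its highest value in the fibroblast-rich library of CT 50; it was called without either of CT 26 and CT 50 but not without both. Kdr, the VEGF receptor of endothelium, peaked at CT 2.59 ± 0.93 (28.8 to 86.9 CPM, adjusted p = 0.0250; 0.0562 to 0.184 without CT 26, 38, 50, 54 or 62, and 0.0573 with the young libraries fitted by themselves); the summed endothelial markers were also highest at CT 26 and CT 50, at 332 and 323 CPM, against 173 to 295 elsewhere, and their part in the result was not tested. Kcnf1, a modulatory potassium channel subunit, peaked at CT 18.3 ± 0.70 and was 1 of 39 potassium channel genes (5.54 to 46.7 CPM, adjusted p = 0.00806). Usp54 joined Usp2 as the 2 of 44 ubiquitin-specific proteases, with its peak at CT 13.3 ± 0.30 (5.82 to 15.3 CPM, adjusted p = 0.00290).

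No gene was called among 32 sarcomere and fibre-type genes, 29 of excitation and calcium handling, 85 oxidative phosphorylation subunits, 79 cytosolic ribosomal proteins, 37 proteasome subunits, 24 heat shock genes and chaperones, 18 endoplasmic reticulum chaperones and 25 NAD and redox genes (edgeR). Over all tested genes 1.38% were called, so a count of 0 lies near the background for lists of this size. In the same order 0, 2, 0, 0, 0, 3, 2 and 1 had an unadjusted p under 0.05. Median amplitudes were lowest for ribosomal proteins (0.05) and oxidative phosphorylation (0.05), and 0.10 for the sarcomere list, against 0.11 over all tested genes. None of 13 Kruppel-like factors was called either, though 7 had an unadjusted p under 0.05 and their median amplitude was 0.25.

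**Figure D3:**
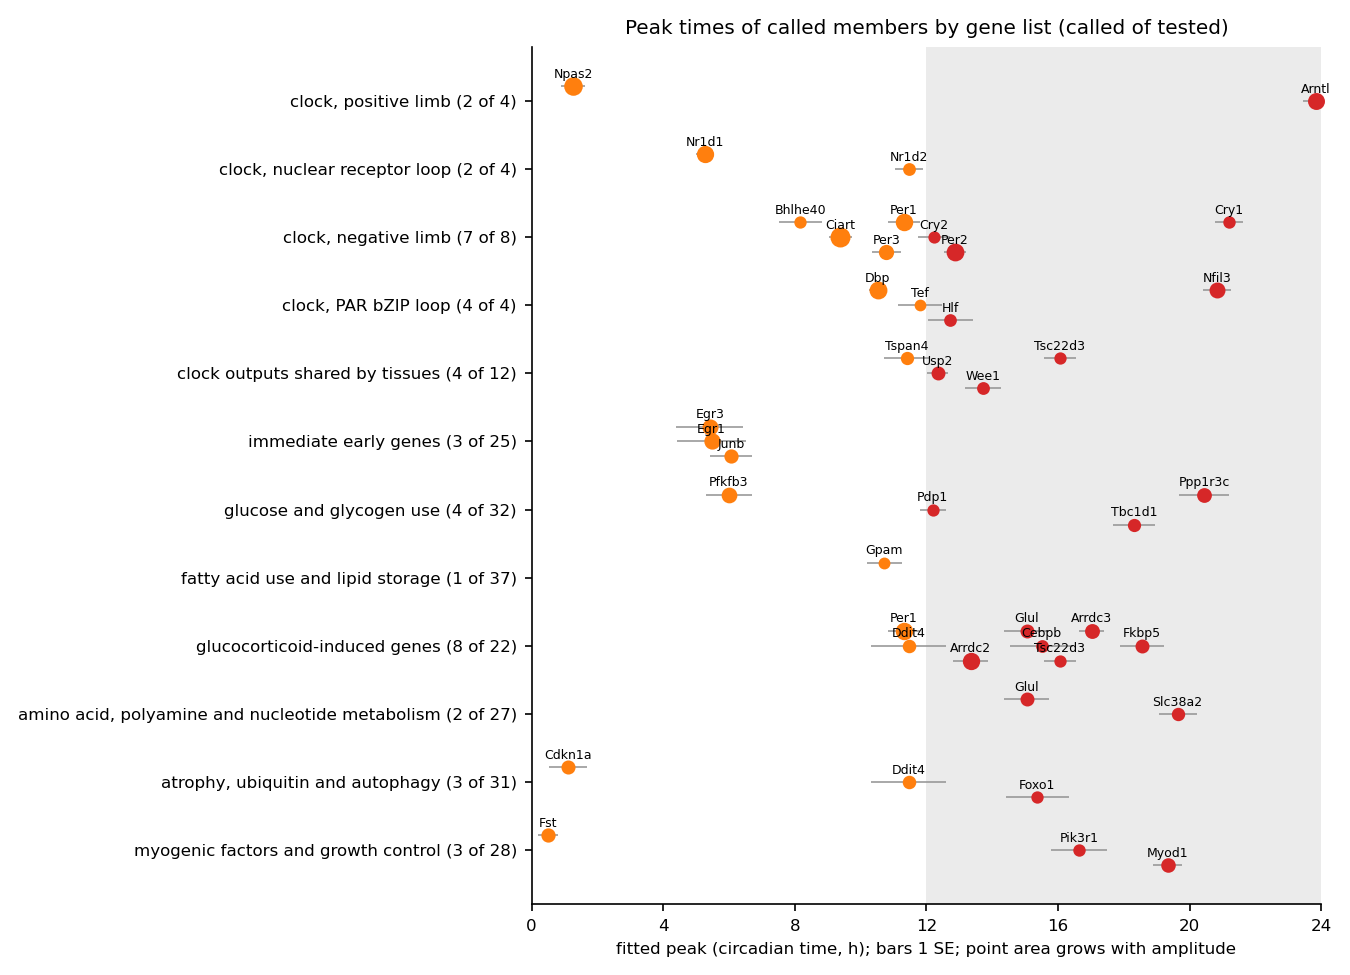
Fitted peak (horizontal axis, circadian time in h) of each rhythmic member of 12 gene lists, with 1 SE as a bar, larger points for larger amplitudes, orange for day and red for night peaks (shaded). Beside each name stand the called and tested members; the 3 immediate early genes sit at CT 5.42 to 6.06, and 6 of 8 glucocorticoid-induced genes in the night.

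The largest amplitudes outside these lists followed the same times. Apold1, an early-response gene of endothelium, peaked at CT 5.70 ± 0.94, from 1.14 CPM (CT 62) through 2.71 to 21.9 (CT 30) (amplitude 1.27 ± 0.31, adjusted p = 0.00108, and 0.0655 without CT 30). Nrip1 (RIP140), a corepressor of metabolic nuclear receptors, went from 19.9 CPM (CT 26) through 41.3 to 82.4 (CT 62) and peaked at CT 13.8 ± 0.31 (amplitude 0.94 ± 0.08, adjusted p = 5.43e-07). Cep85l, a centrosomal protein, peaked at CT 12.9 ± 0.45 with 32.3 to 159 CPM (amplitude 0.996 ± 0.12, adjusted p = 2.25e-06). Mthfd1l, of mitochondrial folate metabolism, peaked at CT 12.3 ± 0.60 at low level (0.413 to 2.19 CPM, adjusted p = 0.00285). Ypel2 peaked at CT 22.4 ± 0.28 (9.06 to 36.6 CPM, adjusted p = 6.32e-08), and Pnpla3, a lipase of lipid droplets, at CT 21.8 ± 0.48 (1.22 to 8.52 CPM, adjusted p = 0.0307; 3 of 12 fits without 1 young library kept the call, 0.0513 to 0.164 in the others).

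The epithelial library decided some day genes. Aldh3a1, an aldehyde dehydrogenase of epithelia, was at 16.9 CPM at CT 26 and had a median of 0.693 over the 12 libraries; its adjusted p of 0.00235 became 1 without that library. Elf3, an epithelial transcription factor, was at 6.63 CPM there with a median of 0.673 (adjusted p = 0.000259, and 0.0504 without it). Epithelial genes chosen after their values were seen (Krt4, Krt13, Krt19, Krt7, Muc4 and Bpifa1) summed to 91.0 CPM at CT 26 and 2.56 to 14.2 elsewhere. Of these only Bpifa1 was not highest at CT 26 (2.60 CPM, against 5.56 at CT 22). The fitted curve explained under 0.5 of the variance in 3 called genes, namely Aldh3a1, Muc4 and Prg4.

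**Figure D4:**
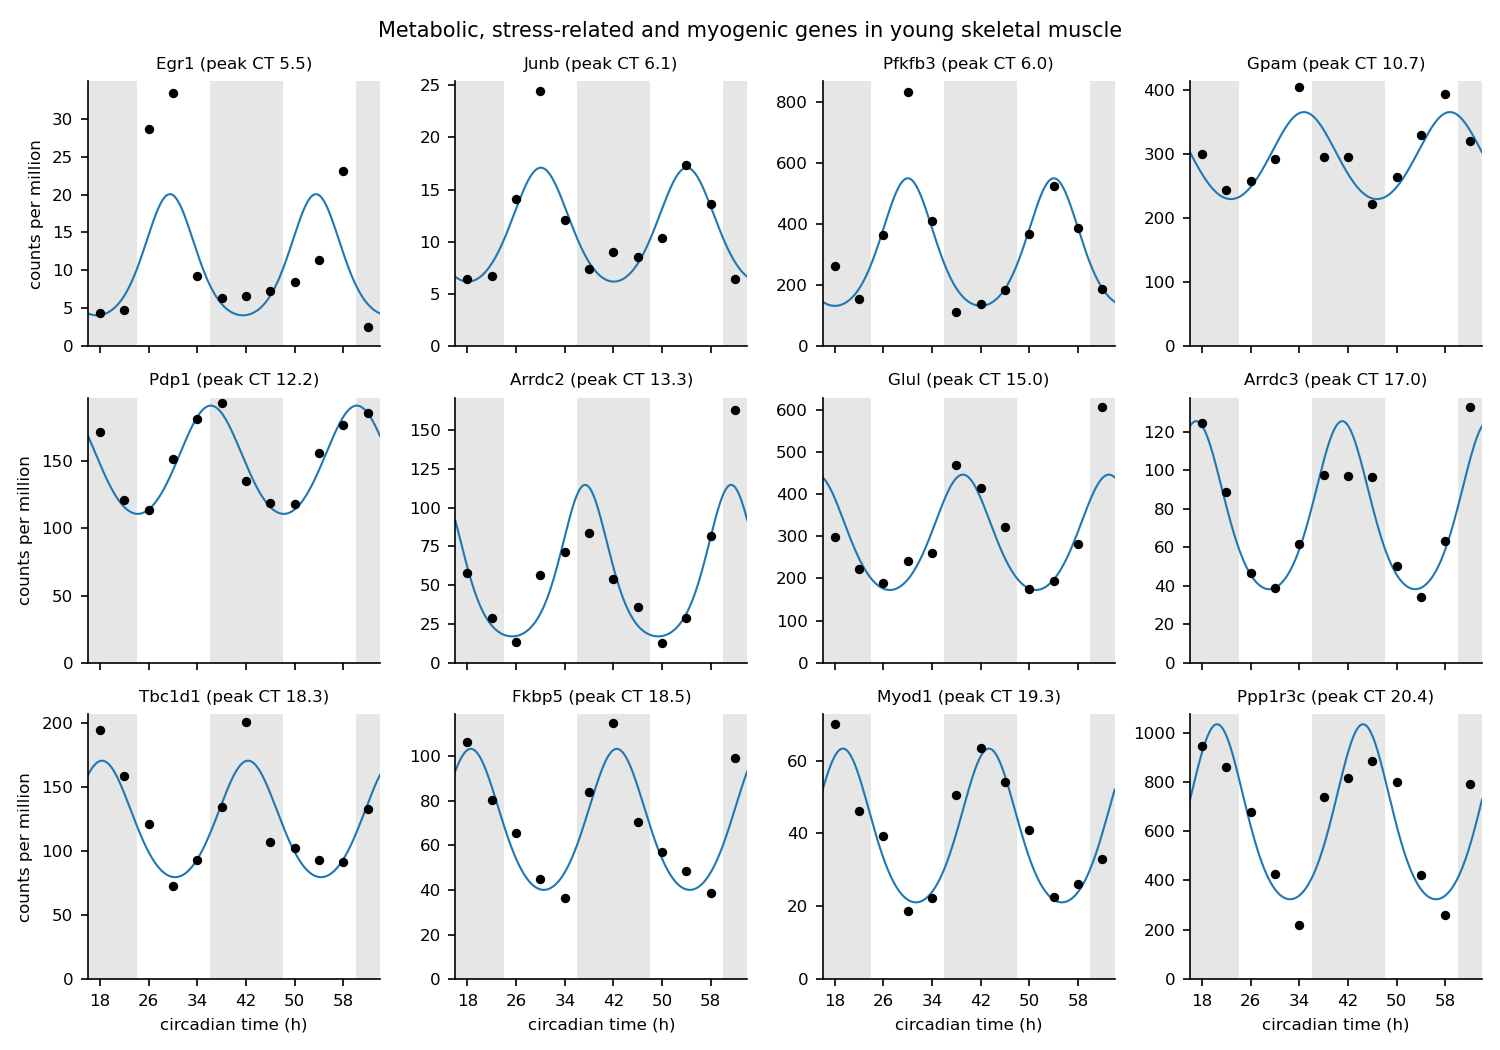
CPM (vertical axes, from 0) against circadian time in h for 12 metabolic, stress-related and myogenic genes, drawn as for the clock genes (points are single libraries, lines the fitted cosine, grey the subjective night). Egr1, Junb and Pfkfb3 are high in day libraries, and Arrdc3, Fkbp5, Myod1 and Ppp1r3c in night libraries; the library of CT 30 is the highest for Egr1, Junb and Pfkfb3.

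Most clock genes were also rhythmic in muscle of the older mice. Of the 15 clock genes called in young muscle, 15 were called in aged muscle (3.01% of tested genes) and 14 in old muscle (4.62% of tested genes), all but Cry1 (adjusted p = 0.0629). Clock and Bhlhe41, not called in young muscle, were called in old muscle (adjusted p = 0.0471 and 0.0122). Fitted peaks were earlier in aged muscle for 14 of the 15 and in old muscle for 15, with median shifts of -1.17 h and -1.23 h; both comparisons use the same young libraries. Over all 200 genes the median shift was -1.21 h in aged and -0.68 h in old muscle, with 162 and 131 genes earlier. No gene's rhythm differed past the threshold between young and aged muscle (edgeR: 0% called, 640 at an unadjusted p under 0.05; DESeq2: 0) or between young and old muscle (0% called, 1298 at an unadjusted p under 0.05; DESeq2: 15). The lowest adjusted p for young against old, 0.225, belonged to Per2, with an amplitude of 1.5 in young and 0.64 in old muscle. Of the 200 genes, 123 were also called in aged muscle (61.5% of the young calls, 28.1% of the aged calls) and 95 in old muscle (47.5% and 14.1%); 75 were called at all 3 ages and 57 in young muscle alone. Egr1, a day gene of young muscle, had adjusted p-values of 0.393 in aged and 0.713 in old muscle, and its rhythm was not shown to differ between the ages.

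Heart of young mice served as a second striated muscle. In a joint fit of the 24 libraries, 1416 of 14490 genes were rhythmic in heart (9.77%), and the rhythm of 80 genes differed between the tissues (0.552%; 1759 at an unadjusted p under 0.05). Of the 194 muscle rhythms tested in both tissues, 106 were also rhythmic in heart, and among these 76 peaked within 2 h of the muscle peak and 7 more than 4 h from it. All 15 called clock genes were rhythmic in heart too, with the larger amplitude in heart for 11 of them.

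Nr1d1, Nr1d2 and Tef were clock genes whose rhythms differed between the tissues in the joint fit. Nr1d1 peaked at CT 7.66 ± 0.21 in heart, 2.36 h later than in muscle (adjusted p = 0.000457), while Arntl, Dbp and Per1 lay within 1 h of their muscle peaks. Arntl and Dbp had larger amplitudes in heart (2.24 and 2.09, against 1.29 and 1.52 in muscle), and Per1 a smaller one (1.20 against 1.42). For Arntl and Dbp the difference had adjusted p = 0.143 and 0.178 in the joint edgeR fit. With circadian time as a block shared by the tissues the adjusted p was 0.000390 for both. Nr1d2 and Tef peaked at CT 10.7 and CT 12.6 in heart, within 1 h of their muscle peaks, and had larger amplitudes there, 1.07 ± 0.07 and 0.83 ± 0.06 (adjusted p = 0.00159 and 0.00462).

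Some night genes of muscle had little rhythm in heart. Slc25a30 lay between 9.86 and 13.6 CPM in all 12 heart libraries (amplitude 0.08 ± 0.07), and its difference from muscle had the smallest adjusted p of all, 7.61e-06. Nrip1 had an amplitude of 0.21 ± 0.08 in heart (adjusted p of the difference = 0.000336), Cep85l 0.10 ± 0.06 (0.000559) and Tbc1d1 0.05 ± 0.04 (0.00462). Arrdc3 and Lonrf1, a ring-finger protein, were rhythmic in both tissues at other times: Arrdc3 peaked at CT 10.1 ± 1.06 in heart, a shift of -6.91 h (adjusted p = 0.000305), and Lonrf1 at CT 14.7 ± 0.17, a shift of -5.37 h from its muscle peak of CT 20.04 (adjusted p = 0.000336; its rhythm in muscle was not called without CT 22, 34, 54 or 58, 0.0553 to 0.0766). Among the 80 genes that differed, 49 were not rhythmic in muscle, and the amplitude was larger in heart for 42 and in muscle for 38. Of the 31 that were rhythmic in muscle, 26 had the larger amplitude there, which partly follows from their choice.

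**Figure D5:**
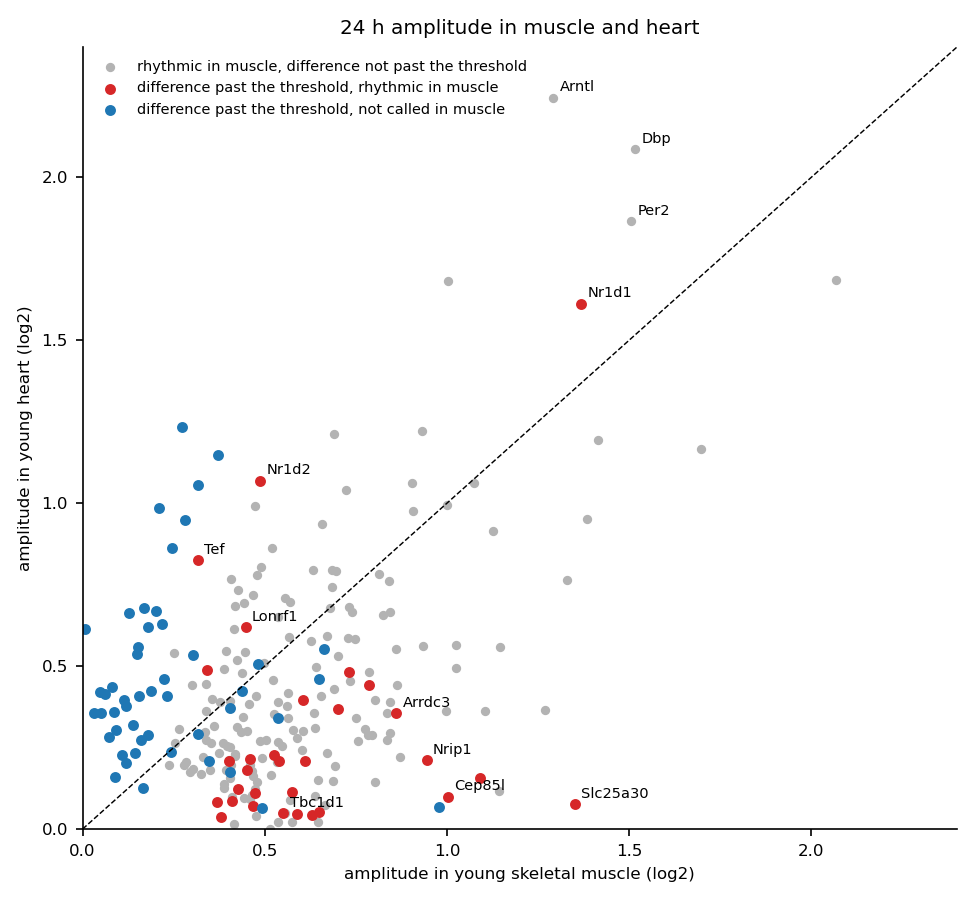
Amplitude (log2) in young heart against that in young skeletal muscle; grey points are muscle rhythms whose difference did not pass the test, red points differed and were rhythmic in muscle, blue points differed and were not called in muscle, and the dashed line marks equal amplitude. Slc25a30, Cep85l, Nrip1 and Tbc1d1 lie near the muscle axis, and Nr1d1, close to the line, differed in peak time.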

How the data were processed

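Poly(A) RNA-seq was done by the authors; per the submitters' processing notes HISAT2, HTSeq and GRCm38 (mm10) were used, with no versions or roles given. The authors deposited whole-number counts per gene (55376 gene lines; 2 names are duplicated and were kept apart) and a CPM table, in which each value is the count scaled to a common library total. All CPM here were recomputed from the deposited counts, and all tests used the counts as deposited.

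Genes were filtered with edgeR's filterByExpr (minimum count 10, by age), leaving 14542, and normalized by TMM. The 36 muscle libraries (3 ages, 12 each) were fitted together with edgeR 4.0.16 in R 4.3.3 (robust quasi-likelihood), with a mean and a 24 h cosine and sine for each age, so that the ages share 1 estimate of the spread. The heart comparison fitted the 24 young libraries of heart and muscle alike; DESeq2 1.42.0 was an alternative. P-values were adjusted by Benjamini-Hochberg over all tested genes. Amplitude and peak, with their standard errors, came from least squares on log2 CPM (2 counts added) of the 12 young libraries. The fits were tested on simulated counts with known rhythms. The 12 young muscle libraries (66 pairs) differed from each other by more than counting noise.

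The members and gene lists were chosen with earlier results of these data known. Named genes were all clock genes, the 12 day-peaking and 12 night-peaking called genes of largest amplitude (mean CPM of at least 1), up to 4 called members of each list by p, and up to 5 genes per difference by p. Muscle and heart residuals at the same circadian time correlated from -0.10 to 0.31, with 8 of 12 above 0.1. Their median was 0.14, against -0.02 at other times. Whether both tissues of a time came from the same mice is not labelled. The main heart comparison left this possible pairing out, and a fit with circadian time as a block is given as an alternative. Some named genes are not reported here.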

Additional observations from a re-analysis of the deposited data

Results flagged for a closer look

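The 24 h rhythm of 80 genes differed between young heart and young muscle by a test of the difference itself. These included Slc25a30 (adjusted p = 7.61e-06), Arrdc3 (0.000305), Lonrf1 (0.000336), Nrip1 (0.000336), Nr1d1 (0.000457), Nr1d2 (0.00159) and Tef (0.00462). Slc25a30 and Nrip1 had the larger amplitude in muscle, and Nr1d2 and Tef in heart. Arrdc3, Lonrf1 and Nr1d1 had peaks more than 2 h apart in the tissues. The heart libraries held 9.44 to 13.8 M counts and the muscle libraries 15.2 to 27.6 M; the part of this depth gap in the differences was not tested.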

How the results depend on the processing

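Counts of called genes depended on the fit more than on the scaling. Calls in young muscle (200 in all, 99 day, 101 night) were 655, 419 and 236 with no filter on low counts, 363, 183 and 180 with DESeq2, 110, 46 and 64 at an adjusted p under 0.01, and 528, 291 and 237 with the young libraries fitted by themselves (178 of the 200 shared). Median-of-ratios scaling gave 200 (197 shared), a linear trend 164, and a fit without the old library of CT 62, the shallowest, 268. Leaving out 1 young library gave 130 to 191 in all, 50 to 85 day and 75 to 107 night genes. Alternatives added after the data were seen left out both libraries of a circadian time: 94, 33 and 61 without CT 26 and CT 50, 96, 44 and 52 without CT 34 and CT 58, and 91, 37 and 54 without CT 38 and CT 62; without CT 18 and CT 42 there were 64 day genes. The heart difference (80 genes) was 659 with no filter, 257 with DESeq2, 35 at 0.01, 146 with circadian time as a replicate block (73 of the 80 shared; 5 of 12 muscle libraries correlated best with heart at their own time; the clock genes Arntl, Dbp, Hlf and Per3 passed only with it, at adjusted p = 0.000390, 0.000390, 0.0383 and 0.0385) and 53 to 115 with 1 young muscle library left out. The block left the age differences at 0. The difference between aged and young (0) was 382 with no filter. That between old and young (0) was 605 with no filter, 15 with DESeq2 and 0 to 1 with 1 library left out, and the 12 h component (0) was 129 with no filter. The cause of these changes was not tested. No named gene changed direction. With a linear trend Pfkfb3 (adjusted p = 0.0504), Aldh3a1 (0.0771), Pnpla3 (0.0811) and Ddit4 (0.371) were not called. The lowest amplitude called was 0.24.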

Other observations

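Lipid and sterol genes outside the list used above, picked after their values were seen, were also among the 200 called genes, at separate times. Sqle, squalene epoxidase of cholesterol synthesis, peaked at CT 1.38 ± 0.67 (0.868 to 3.98 CPM, adjusted p = 0.0199), and Scd2, a fatty acid desaturase, at CT 1.79 ± 0.81 (37.3 to 105 CPM, adjusted p = 0.0408), with the highest value of Scd2 at CT 50. Cpt1a, the non-muscle form of the enzyme that admits fatty acids to mitochondria, peaked at CT 9.26 ± 0.46 (5.99 to 18.3 CPM, adjusted p = 0.0267). Acat2 peaked at CT 13.2 ± 0.57 (4.31 to 8.91 CPM, adjusted p = 0.00355), and Mid1ip1, a partner of acetyl-CoA carboxylase, at CT 15.0 ± 0.72 (48.1 to 136 CPM, adjusted p = 0.0177). Acat2 was called whichever young library was left out. Cpt1a, Scd2, Sqle and Mid1ip1 were called in 5, 4, 7 and 8 of those 12 fits. Without both CT 26 and CT 50, Sqle and Scd2 were not called.

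Other called genes, also picked after their values were seen, peaked at night. Dok7, which organises the neuromuscular junction, peaked at CT 16.05 ± 0.61 (17.4 to 31.3 CPM, adjusted p = 0.00130). Asb2, a ubiquitin ligase subunit of muscle, peaked at CT 23.0 ± 0.45, from 662 CPM (CT 34) through 1011 to 1426 (CT 22) (adjusted p = 0.00174). The kinases Pim1 and Dyrk2 peaked at CT 23.5 ± 0.49 and CT 23.3 ± 0.39, with 11.5 to 46.2 and 75.5 to 215 CPM. Noct (nocturnin), a phosphatase of NADP and a known clock output, peaked at CT 15.2 ± 0.54 (20.1 to 50.8 CPM, adjusted p = 0.000439). These 5 genes were called whichever young library was left out. Of the 200 called genes, 161 belonged to none of the function lists.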
